A study of Mus musculus with 50 samples.

Results

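The nuclear genes for subunits of respiratory complexes III, IV and V were followed in bulk RNA sequencing of 50 mouse thyroid libraries. Members were the genes of the count table whose symbol begins with Uqcr, with Atp5, or with Cox followed by a digit from 4 to 8 and a, b, c or i. Cox7a1, Cox8b and symbols marked as pseudogenes were left out. This gave 42 of 52636 genes, made up of 8 for complex III, 17 for complex IV and 17 for complex V. Of the 42 members, 38 passed the filter on low counts at 15 h, at 5 d and in the first set at 7 d. Atp5l passed in addition in the fits that hold the second set, which makes 39, and Atp5g2, Cox7b2 and Cox8c passed in no fit.

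The mice were male C57BL/6 animals from the Jackson Laboratory, and each received 1 intraperitoneal dose of antibody. The control antibody, RW, recognises ragweed and was given at 40 mg/kg. The pair aJ1aJ2 blocks Jag1 and Jag2, ligands of Notch receptors, and was given at 20 mg/kg each. Antibodies against the receptors Notch1 and Notch2, aN1aN2, were given at 5 and 10 mg/kg, and aN1aN2aN3 added an antibody against Notch3 at 20 mg/kg. The ages are given as 10 to 14 weeks in the sample descriptions and as 10 to 12 weeks in the series design. RW, aJ1aJ2 and aN1aN2 were sampled at 15 h and at 5 d, RW and aJ1aJ2 in a first set at 7 d, and aJ1aJ2 and aN1aN2aN3 in a second set at 7 d, with 5 libraries in each of the 10 groups. None of the 50 libraries is an RW library of the second set, so aN1aN2aN3 was compared there with aJ1aJ2 only. The series design also describes injections of thyroid hormones T4 and T3, which the labels assign to no library. The labels do not say that replicates were separate mice, so p-values measure the spread between these samples, which may be technical.

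Complex III passes electrons from ubiquinol to cytochrome c, complex IV passes them from cytochrome c to oxygen, and complex V, the ATP synthase, uses the proton gradient that both help to build. Each complex joins subunits encoded in the nucleus with a few encoded in mitochondrial DNA, and several complex IV subunits exist as isoforms that differ between tissues. Thyroid epithelial cells use mitochondrial ATP for iodide uptake and hormone synthesis, and skeletal muscle, which lies next to the gland, is rich in all 3 complexes.

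The factors NRF1, GABP (an ETS family factor) and YY1 are known to bind promoters of such genes, and the letters of their core motifs were looked for in the 250 bases before the annotated start of each gene, on both strands. RefSeq promoters of build GRCm38.p6 were at hand for 29 of the 42 members. The NRF1 core, GCGCA and GCGC parted by any 1 base, was found in 4 of them (13.8%: Atp5g2, Atp5h, Atp5k and Cox6a1) against 3.86% of all 27025 promoters. The ETS core CCGGAAGT was found in 3 (10.3%: Atp5h, Uqcr11 and Uqcrh) against 2.93% of all promoters, and the YY1 core AAGATGGCG in 0 against 0.607%. A match describes letters and not a bound site. The promoters of 4 members that fell in the second set are shown 5′ to 3′ along the minus strand of the genome, on which all 4 genes lie, with the matches to NRF1 and ETS cores in capitals. They are chr4:116075071-116075320 for the complex III hinge gene Uqcrh (ETS core, 11 bases before the start), chr5:115348959-115349208 for Cox6a1 (NRF1 core at 2 places, the first 162 bases before the start), chr11:115419920-115420169 for Atp5h (an NRF1 core 141 bases before the start and an ETS core nearer to it, which do not overlap) and chr5:108434400-108434649 for Atp5k (NRF1 core, 50 bases before the start).
Uqcrh: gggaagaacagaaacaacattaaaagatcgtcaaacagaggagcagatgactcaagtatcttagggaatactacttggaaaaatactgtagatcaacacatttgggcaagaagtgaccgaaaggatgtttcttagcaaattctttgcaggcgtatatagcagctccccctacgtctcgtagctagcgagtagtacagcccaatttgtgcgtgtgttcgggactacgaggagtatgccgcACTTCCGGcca
Cox6a1: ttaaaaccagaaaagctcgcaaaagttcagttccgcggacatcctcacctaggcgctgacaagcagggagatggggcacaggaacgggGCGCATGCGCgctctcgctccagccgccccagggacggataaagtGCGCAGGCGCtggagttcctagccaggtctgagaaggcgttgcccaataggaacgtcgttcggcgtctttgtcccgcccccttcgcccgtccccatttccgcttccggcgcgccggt
Atp5h: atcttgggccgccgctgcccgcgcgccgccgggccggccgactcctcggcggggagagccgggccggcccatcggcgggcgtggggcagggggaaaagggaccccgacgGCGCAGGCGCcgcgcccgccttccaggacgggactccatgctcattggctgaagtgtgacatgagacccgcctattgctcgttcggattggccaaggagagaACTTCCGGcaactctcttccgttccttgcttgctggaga
Atp5k: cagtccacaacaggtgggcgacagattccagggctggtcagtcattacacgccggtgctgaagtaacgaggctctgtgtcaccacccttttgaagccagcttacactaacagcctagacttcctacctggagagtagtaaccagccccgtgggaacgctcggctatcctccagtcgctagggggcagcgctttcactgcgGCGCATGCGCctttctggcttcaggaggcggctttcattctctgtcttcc

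Library totals were 15.3 to 52.8 M counts (median 28.3 M; M stands for 1e6). The gene for thyroglobulin, Tg, took 0.450 to 42.4% of the counts in the 8 groups outside the second set and 1.15 to 6.5% in the second set. The sum of 12 thyrocyte genes, none of them at 0 in any group, was 8073 to 508664 CPM (counts per 1e6 counts, scaled by the trimmed mean of M values, TMM, and used for levels throughout). The lowest of these sums belonged to RW replicate 3 at 5 d, which had the highest sum of 12 skeletal muscle genes, 232917 CPM. Muscle sums ran from 325 to 232917 CPM over all libraries, and 14 of the 50 libraries were above 20000 CPM before scaling.

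The members took 0.279 to 2.24% of the counts of a library, with a median of 0.518%. The lowest share was in aJ1aJ2 at 5 d and the highest in aJ1aJ2 of the second set. To compare genes with each other, CPM was divided by the length of the principal transcript in kilobases and averaged over the 8 groups outside the second set. In complex III the highest level per kilobase was that of Uqcr10, a small subunit, at 218, followed by the hinge gene Uqcrh at 170 and the core gene Uqcrc1 at 167. The core gene Uqcrc2 stood at 115, the Rieske iron-sulfur protein gene Uqcrfs1 at 131, and the ubiquinone-binding subunit gene Uqcrb lowest at 10.9.

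In complex IV, Cox4i1, the ubiquitous form of the largest nuclear subunit, led with 545 CPM per kilobase. It was followed by Cox6b1, which holds the dimer together, at 246 and by Cox6c at 174. Cox5a and Cox5b, which bind on the matrix side, stood at 57.6 and 9.91. In complex V the beta and alpha subunit genes of the catalytic head, Atp5b and Atp5a1, led with 642 and 512. Among the 3 genes for the same mature c-ring subunit, Atp5g3 had 310 CPM per kilobase, Atp5g1 3.11 and Atp5g2 0.038. The value of Atp5g2 rests on 39 counts in 24 libraries, and that of Atp5l, a membrane subunit gene, on 224 counts in 37 libraries (0.087 CPM per kilobase). The order of genes depends on the length used: in the authors' deposited FPKM values the complex IV gene with the highest mean over these groups was Cox6c2, with 178, and Cox4i1 had 66.4.

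Some counts could not be assigned with certainty. Cox6c2 is annotated as a processed pseudogene, and 52.7% of its windows of 50 bases, the read length, occurred in another gene as well. The same held for 41.6% of the windows of Atp5o, 38.3% of Atp5g2, 25.5% of Uqcrb and 22.1% of Cox7c, so their levels are uncertain.

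Tissue isoforms of complex IV had unequal shares. Cox6a2, the heart and skeletal muscle form, made up 4.70 to 95.3% of the Cox6a1 and Cox6a2 total per kilobase (median 30.2%) and was the larger part in 16 of 50 libraries. Cox4i2, a form described in lung and in pericytes, made up 0.0230 to 0.762% of the Cox4i total (median 0.248%), on 4 to 100 counts per library. Cox6b2, the testis form, made up 0.211 to 6.02% of the Cox6b total (median 3.27%). The other testis forms were close to undetected: Cox7b2 had 9 counts in 8 libraries and Cox8c 22 counts in 10 libraries. Cox7a2l, a gene related to Cox7a2, made up 18.9 to 38.1% of the total of both outside the second set, against 1.98 to 7.83% in aJ1aJ2 and 11.6 to 18.2% in aN1aN2aN3 of the second set.

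Libraries of 1 group differed widely in the summed level of all 3 complexes. At 15 h the summed CPM of the 8 complex III genes was 719.6, 1422, 699, 597 and 1556 in RW replicates 1 to 5. The high values of RW were replicates 2 and 5, the only RW libraries of that time above 20000 CPM of muscle genes before scaling. The complex III sums of aJ1aJ2 at 15 h, 735, 596, 1209, 920.4 and 715, and those of aN1aN2, 579.5, 1272, 1263, 687 and 1553, overlapped with RW. At 5 d the complex III sums of RW were 520.5, 564, 4066, 784 and 529, and the ATP synthase sums of the same libraries were 2324, 2414, 14390, 3177 and 2275. Replicate 3 thus stood far above the other 4 libraries of its group. In that library 34 of the 38 tested members had their highest value of the group, 1.36 to 46.0 times the mean of the other 4 (median 6.54), while Cox7c, Cox6a1, Cox8a and Cox6b2 had their lowest (0.835, 0.531, 0.466 and 0.221 times).

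**Figure D1:**
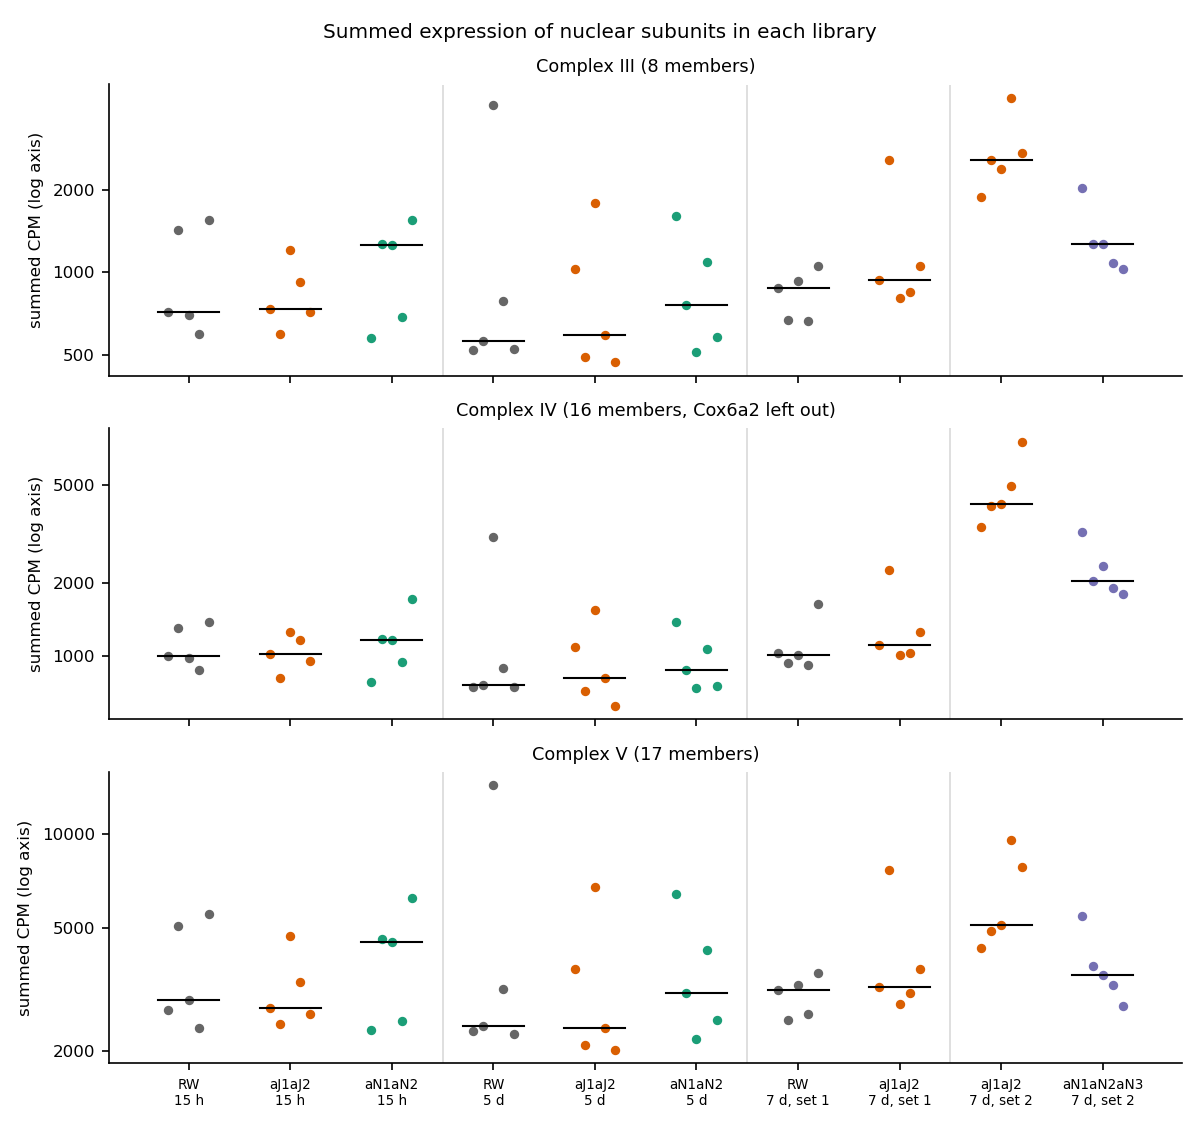
Summed CPM (log axis) of the complex III, complex IV (Cox6a2 left out) and complex V members in each of the 50 libraries, by group, with lines at the group medians. RW replicate 3 at 5 d stands alone at the top of its group with 4066 CPM of complex III. In the second set at 7 d both groups lie above most libraries of the other 8 groups in complexes III and IV. In complex V aJ1aJ2 of that set does so too, while aN1aN2aN3 (2789 to 5443 CPM) lies within the range of the other groups.

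Cox6a2 followed the muscle genes from library to library, and its ubiquitous partner Cox6a1 did not rise with them. At 5 d Cox6a2 stood at 3.62, 6.29, 707, 42.3 and 9.24 CPM in RW replicates 1 to 5, and Cox6a1 at 56.9, 56.2, 29.3, 55.2 and 52.5 CPM. The library with the most Cox6a2 was the one with the least Cox6a1. Over the 40 libraries outside the second set, log2 Cox6a2 and the log2 muscle sum had a Pearson r of 0.94 and a Spearman rho of 0.95, both with a 2-sided permutation p of 1e-05, the smallest that 100000 resamples can give (1.5e-05 adjusted over 3 such relations). Without the 2 libraries farthest from the median, r was 0.93 over 38 libraries. For Cox6a1 and the muscle sum over the same 40 libraries, r was -0.26 (permutation p = 0.109, adjusted 0.109) and rho was -0.18 (permutation p = 0.267, adjusted 0.267), and r was -0.14 without the 2 farthest libraries. The second set was kept apart because its libraries form a cluster of their own: over its 10 libraries r was 0.91 for Cox6a2 (permutation p = 0.00018) and -0.26 for Cox6a1 (permutation p = 0.486).

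**Figure D2:**
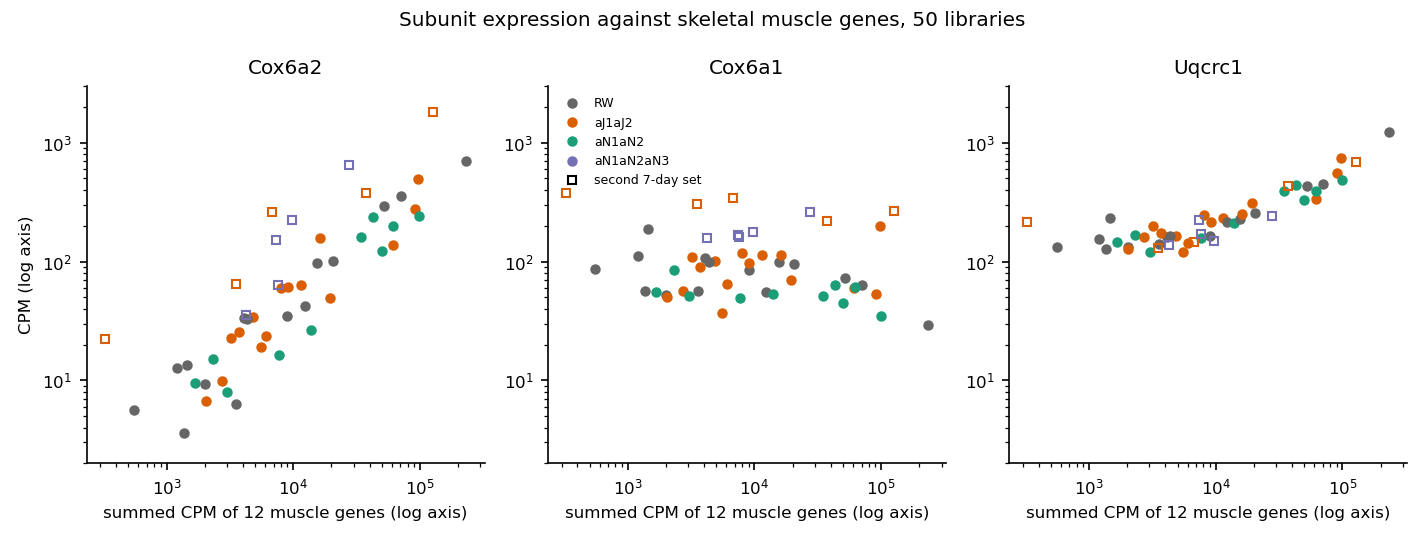
CPM of Cox6a2, Cox6a1 and the complex III core gene Uqcrc1 (log axes) against the summed CPM of 12 skeletal muscle genes in 50 libraries, with open squares for the second set at 7 d. Cox6a2 rises along the whole axis (r = 0.94 over the 40 other libraries), and Cox6a1 does not (r = -0.26).

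At 15 h, after blockade of the ligands, 1 member changed: Cox4i2 fell 2.95-fold. Of 38 members 0 were higher and 1 was lower in aJ1aJ2 than in RW (adjusted p under 0.05, edgeR quasi-likelihood test), where 0.227% of all genes were lower and 0.573% passed in either direction. The median log2 fold change was -0.20 for the members and -0.03 for all genes, and 31 members lay below 0. The member median was -0.0014 without RW replicate 5 and 0.073 without the libraries above 20000 CPM of muscle genes, an alternative chosen after seeing the data. In whole tissue, fewer cells of a type and less RNA per cell cannot be told apart. The deposited FPKM values split into 2 blocks by the gene lengths they imply, with RW and aJ1aJ2 at 15 h among 30 libraries of one and aN1aN2 at 15 h among 20 of the other, so that in every comparison of aN1aN2 at 15 h antibody and block cannot be told apart. In aN1aN2 against RW at 15 h no member passed (0 of 38, with 2 at an unadjusted p under 0.05, and 0 by DESeq2 and by limma voom), where 1.68% of all genes did by edgeR. Here and below, shares of all genes past the threshold are given for edgeR with all libraries only, not for DESeq2 or limma voom. The member median was -0.01 and that of all genes 0.01, and it ran from -0.23 without aN1aN2 replicate 5 to 0.22 without RW replicate 5. The members with the smallest adjusted p were the ubiquitous Cox8a (log2 fold change -0.50 ± 0.20 SE, adjusted p = 0.263), Cox7a2l (0.30, 0.313) and Cox6a1 (-0.38, 0.393).

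Between the antibody groups at 15 h, aN1aN2 against aJ1aJ2, no member passed edgeR's threshold (0 of 38, 3 at an unadjusted p under 0.05), where 0.13% of all genes did; limma voom called 0 members and DESeq2 called 1, Cox4i2. Members had a median of 0.26 against 0.00 for all genes, which was -0.0070 without aN1aN2 replicate 5 and -0.21 without the libraries rich in muscle genes. Cox8a stood at 108, 67.3, 54.8, 102 and 92.6 CPM in aJ1aJ2 and at 53.8, 52.2, 53.3, 83.0 and 49.5 CPM in aN1aN2, with 4 of the 5 aN1aN2 libraries below every aJ1aJ2 library. Its log2 fold change was -0.54 ± 0.20 SE (adjusted p = 0.294), and that of Cox6a1 was -0.44 (adjusted p = 0.371). The comparisons with RW share the RW libraries, and those with aJ1aJ2 share the aJ1aJ2 libraries, so their values are not independent.

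**Figure D3:**
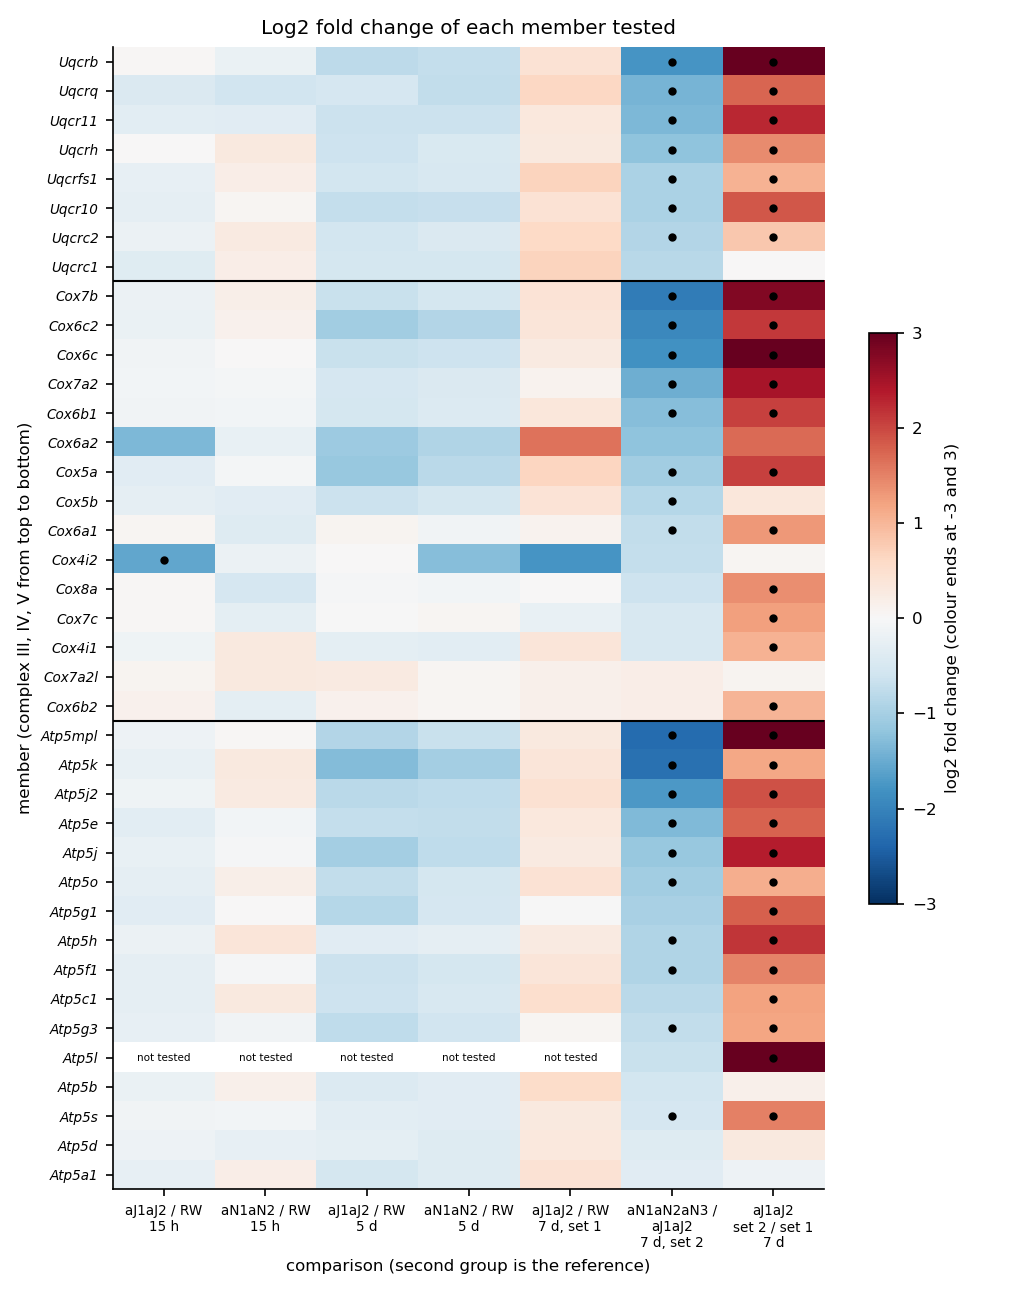
Log2 fold change (colour, ends at -3 and 3) of each tested member in 7 comparisons, by complex, with a black dot where the adjusted p was under 0.05. Against RW the only dot is that of Cox4i2 at 15 h, and the 2 right-hand columns, which hold the second set, carry 25 and 31 dots.

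Cox4i2 was followed through all groups. In RW at 15 h it stood at 1.44, 2.90, 1.94, 1.80 and 2.19 CPM (2.05 ± 0.545 SD, n = 5), on 47 to 66 counts per library. In aJ1aJ2 at 15 h it stood at 0.714, 0.737, 0.779, 0.842 and 0.401 CPM (0.695 ± 0.171 SD, n = 5), on 16 to 24 counts. All 5 aJ1aJ2 libraries lay below all 5 RW libraries, as did 0.762% of all genes in that direction. The log2 fold change was -1.56 ± 0.30 SE (adjusted p = 0.0341). In aN1aN2 at 15 h the values were 1.21, 2.61, 1.17, 1.43 and 2.63 CPM, which overlapped with RW and gave a log2 fold change of -0.18 ± 0.29 SE against it (adjusted p = 0.837). They lay above every aJ1aJ2 library, as did 1.22% of all genes (1.38 ± 0.30 SE, adjusted p = 0.114).

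The aJ1aJ2 call at 15 h depended on single libraries. It was lost (adjusted p up to 0.113) in 8 of 15 fits that left out 1 library, namely without RW replicate 2, 3, 4 or 5 or without aJ1aJ2 replicate 1, 2, 3 or 5. It was also lost without the libraries rich in muscle genes (log2 fold change -1.35, adjusted p = 0.112). That fit leaves out 2 RW, 1 aJ1aJ2 and 3 aN1aN2 libraries. The call was kept with the muscle list as a covariate (adjusted p = 0.0134), by DESeq2 (adjusted p = 0.000499) and by limma voom (0.0147).

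At 5 d the pattern of Cox4i2 was different, with low values in aN1aN2. RW stood at 1.27, 1.60, 2.08, 1.88 and 1.39 CPM, and aJ1aJ2 at 1.32, 1.36, 1.97, 2.46 and 1.14 CPM, which overlapped (log2 fold change 0.00, adjusted p = 0.999). aN1aN2 stood at 1.26, 0.496, 0.474, 0.403 and 0.769 CPM, and all 5 libraries lay below every RW library, as did 1.14% of all genes (log2 fold change -1.27 ± 0.33 SE, adjusted p = 0.215). Against aJ1aJ2 at 5 d the log2 fold change of aN1aN2 was -1.27 ± 0.33 SE (adjusted p = 0.638), with 4 of 5 libraries below every aJ1aJ2 library. DESeq2 (adjusted p = 0.0143) and limma voom (0.0158) called Cox4i2 lower in aN1aN2 than in RW at 5 d, and edgeR did not.

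The change of the antibody effect from 15 h to 5 d was tested as an interaction. For aJ1aJ2 it was 1.54 ± 0.44 SE on the log2 scale for Cox4i2 (edgeR adjusted p = 0.113, DESeq2 0.0314), and for aN1aN2, whose 15 h libraries belong to the other block of gene lengths than RW, it was -1.12 (edgeR adjusted p = 0.209). No member passed edgeR's threshold in either interaction (0 of 38, with 1 at an unadjusted p under 0.05 in each), where 0.636% and 1.8% of all genes did; DESeq2 called 1 member for aJ1aJ2 and 0 for aN1aN2.

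In the first set at 7 d Cox4i2 stood at 1.23, 1.23, 1.17, 1.85 and 3.48 CPM in RW and at 0.452, 0.888, 0.223, 0.499 and 0.567 CPM in aJ1aJ2, on 4 to 14 counts per aJ1aJ2 library. The groups did not overlap, as held for 1.91% of all genes in that direction, and the log2 fold change was -1.78 ± 0.41 SE (edgeR adjusted p = 0.161, DESeq2 0.00648, limma voom 0.0147). In the second set both groups were low, at 0.554, 0.557, 0.629, 0.422 and 0.451 CPM in aJ1aJ2 and 0.261, 0.139, 0.322, 0.610 and 0.296 CPM in aN1aN2aN3, which overlapped (log2 fold change -0.71, adjusted p = 0.214). Ordered by group mean, RW at 15 h (2.05 CPM), aN1aN2 at 15 h (1.81), RW in the first set at 7 d (1.79), aJ1aJ2 at 5 d (1.65) and RW at 5 d (1.64) all overlapped with one another. The low groups, aJ1aJ2 at 15 h (0.695), aN1aN2 at 5 d (0.681), aJ1aJ2 in the first set at 7 d (0.526) and in the second (0.522) and aN1aN2aN3 (0.326), all overlapped with one another too. The low groups were not all apart from the others. Through its highest library, aN1aN2 at 5 d overlapped with aN1aN2 at 15 h, RW in the first set at 7 d and aJ1aJ2 at 5 d.

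Genes of mural cells, the pericytes and smooth muscle cells of vessels, were read beside Cox4i2. The summed CPM of 9 such genes, none of them at 0 in any group, was 436 to 758 in RW, 278 to 513 in aJ1aJ2 and 418 to 641 in aN1aN2 at 15 h. It was 557 to 1422 in RW, 385 to 793 in aJ1aJ2 and 298 to 601 in aN1aN2 at 5 d, and 391 to 579 in RW and 283 to 548 in aJ1aJ2 in the first set at 7 d. The 1422 CPM belonged to RW replicate 3, the library with the highest muscle sum, where the listed gene Abcc9 stood at 640 CPM. In the other RW libraries at 5 d the mural sum was at most 712 CPM and Abcc9 at most 145 CPM. At 15 h and 5 d the highest mural sum and Abcc9 of every group lay in libraries rich in muscle genes. The same held for aJ1aJ2 of the first set at 7 d, while RW of that set held no such library. At 15 h Abcc9 stood at 201 and 245 CPM in RW replicates 2 and 5 and at most at 100 CPM in the other RW libraries. The part of muscle tissue in the mural sum was not tested. In aJ1aJ2 at 15 h 2 of the 9 fell, the pericyte marker Rgs5 (log2 fold change -1.14 ± 0.16 SE, adjusted p = 0.00683) and the receptor gene Notch3 (-0.89, adjusted p = 0.0443), where 0.227% of all genes were lower, and all 9 lay below 0. In aJ1aJ2 at 5 d, where Cox4i2 had a log2 fold change of 0.00, 8 of the 9 lay below 0 (median -0.37) and 0 passed. In aN1aN2 against RW 7 of 9 lay below 0 at 15 h (median -0.16) and 9 of 9 at 5 d (median -0.40). In aJ1aJ2 of the first set at 7 d 6 of 9 did (median -0.26), and 0 passed in each. In the second set the mural sum was 109 to 236 CPM in aJ1aJ2 and 68.6 to 108 CPM in aN1aN2aN3. Rgs5 stood at 213 to 327 CPM in RW and 101 to 171 CPM in aJ1aJ2 at 15 h, and at 274 to 618 CPM in RW and 79.4 to 155 CPM in aN1aN2 at 5 d. Over the 40 libraries outside the second set Cox4i2 and the mural sum had an r of 0.72 and a rho of 0.72 (permutation p = 1e-05 for both, the smallest the resamples can give, adjusted 1.5e-05), and r was 0.73 without the 2 farthest libraries. Over the 10 libraries of the second set r was 0.40 (permutation p = 0.256) and rho was 0.45 (permutation p = 0.191). In these correlations libraries of different groups were pooled, so differences between groups enter r, rho and p. The sum also holds Rgs5 and Notch3, which fell together with Cox4i2 in aJ1aJ2 at 15 h. The part of mural cell content in the Cox4i2 values was not tested. COX4I2 is also known as a gene whose promoter is bound by RBPJ, the DNA-binding partner of Notch receptors.

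**Figure D4:**
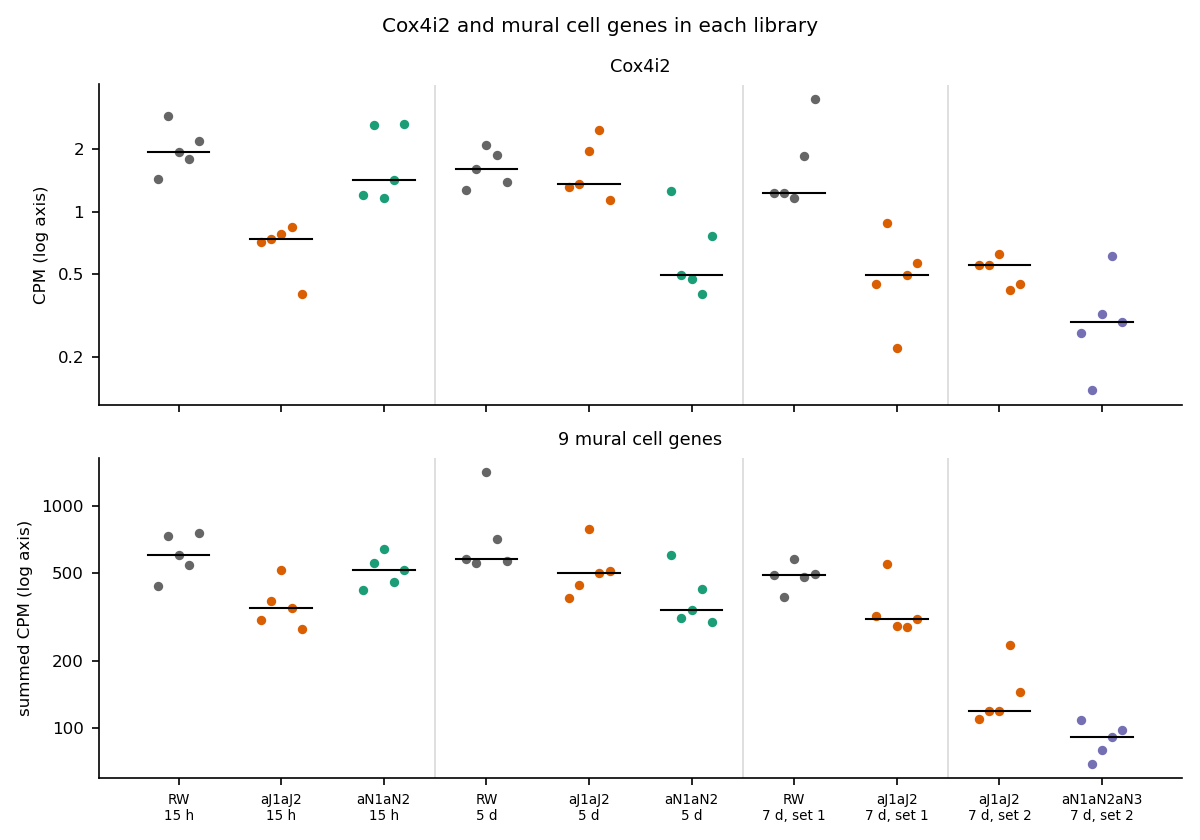
CPM of Cox4i2 (upper panel) and summed CPM of 9 mural cell genes (lower panel), both on log axes, in each library by group, with lines at the group medians. Cox4i2 lies below every RW library of the same time in aJ1aJ2 at 15 h, aN1aN2 at 5 d and aJ1aJ2 of the first set at 7 d.

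At 5 d no member passed edgeR's threshold against RW, and the RW group held the library with 232917 CPM of muscle genes. In aJ1aJ2 against RW edgeR called 0 of 38 members (0 at an unadjusted p under 0.05), where 0.179% of all genes did; DESeq2 called 0 members and limma voom 1. The member median was -0.63 against -0.06 for all genes, and 34 members lay below 0. Without RW replicate 3 the median was 0.32, and Cox7a2l was then higher in aJ1aJ2 (log2 fold change 0.58, adjusted p = 0.0200). Cox7a2l stood at 42.5, 40.4, 94.9, 43.3 and 48.1 CPM in RW, at 62.1, 66.7, 67.8, 69.7 and 59.1 CPM in aJ1aJ2 and at 62.4, 50.9, 61.4, 59.8 and 49.1 CPM in aN1aN2. Both antibody groups lay above the 4 other RW libraries and below replicate 3, so they overlapped with RW as a whole. How many of all genes lay likewise, or passed without replicate 3, is not given here. With all libraries the log2 fold change of Cox7a2l in aJ1aJ2 was 0.26 ± 0.21 SE (adjusted p = 0.643), and limma voom, which gives deviant libraries less weight, called it higher (0.57, adjusted p = 0.000387).

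In aN1aN2 against RW at 5 d no member passed edgeR's threshold either (0 of 38, 1 at an unadjusted p under 0.05), where 0% of all genes did; DESeq2 and limma voom each called 1, Cox4i2. Members had a median of -0.52 against -0.07 for all genes, and 0.42 without RW replicate 3. Of aN1aN2 against aJ1aJ2 at 5 d, 0 of 38 members passed (1 at an unadjusted p under 0.05), where 0% of all genes did, and the member median was 0.08 against 0.01 (-0.17 without aN1aN2 replicate 1 and 0.49 without aJ1aJ2 replicate 3); DESeq2 called 0 and limma voom 1. In the comparisons of aJ1aJ2 and aN1aN2 with RW at 5 d the smallest adjusted p included those of the ATP synthase membrane subunit gene Atp5k (log2 fold changes -1.29 and -1.01, adjusted p = 0.512 and 0.778) and of Cox6c2 (-1.05 and -0.88, adjusted p = 0.529 and 0.758).

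In the first set at 7 d no member passed in aJ1aJ2 against RW (0 of 38 by edgeR, 1 at an unadjusted p under 0.05), where 0% of all genes did; DESeq2 and limma voom each called 1, Cox4i2. Their median was 0.34 against 0.01 for all genes, and 35 members lay above 0. Without aJ1aJ2 replicate 2 the member median was 0.030. Next to Cox4i2 the smallest adjusted p were those of Uqcrc2 (log2 fold change 0.59, adjusted p = 0.462) and Uqcrfs1 (0.66, 0.482). The aJ1aJ2 group held 1 library above 20000 CPM of muscle genes before scaling, replicate 2, and the RW group 0. That library had 2575 CPM of complex III genes, against 939, 804, 849.6 and 1053 in the other 4 and 877, 671, 931, 664 and 1055 in RW.

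In the second set at 7 d most members of all 3 complexes were lower in aN1aN2aN3 than in aJ1aJ2. Of 39 members tested 25 were lower and 0 higher, where 10.4% of all genes were lower and 19.6% passed in either direction. By complex, 7 of 8 complex III members, 8 of 15 complex IV members and 10 of 16 complex V members were lower, with medians of -1.08, -0.87 and -0.91. The median of all members was -0.94 and that of all genes -0.07, and 14 members had all aN1aN2aN3 libraries below all aJ1aJ2 libraries, where 6.65% of all genes did.

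In complex III the hinge gene Uqcrh stood at 176, 193, 239.8, 284 and 296 CPM in aJ1aJ2 and at 146, 101, 106, 84.5 and 88.0 CPM in aN1aN2aN3, without overlap (log2 fold change -1.20 ± 0.21 SE, adjusted p = 0.00362). Uqcr11, a small accessory subunit gene, stood at 247, 297, 351, 434 and 556 CPM in aJ1aJ2 and at 237, 137, 139, 130.4 and 113 CPM in aN1aN2aN3 (-1.35 ± 0.27 SE, adjusted p = 0.00631). Replicate 1 of aN1aN2aN3 was the highest of its group in both genes, the only library of that group above 20000 CPM of muscle genes before scaling. Uqcrb (-1.77, adjusted p = 0.0252), Uqcrq (-1.40, 0.0161), Uqcr10 (-0.94, 0.0210), Uqcrc2 (-0.88, 0.0348) and the Rieske gene Uqcrfs1 (-0.95, 0.0479) also fell. The core gene Uqcrc1 did not pass (-0.84, adjusted p = 0.190).

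In complex IV, Cox6b1 stood at 527, 681, 629, 829.95 and 763 CPM in aJ1aJ2 and at 477, 237, 288, 224 and 209 CPM in aN1aN2aN3, without overlap (log2 fold change -1.29 ± 0.25 SE, adjusted p = 0.00624). Cox7b, a small subunit gene, stood at 111, 133, 147, 186 and 617 CPM against 94.7, 48.6, 52.4, 45.4 and 41.5 CPM (-2.10 ± 0.49 SE, adjusted p = 0.0143), and aJ1aJ2 replicate 5 stood above the other 9 libraries. Cox6c (-1.83, adjusted p = 0.0195), Cox6c2 (-1.93, 0.0216), Cox7a2 (-1.47, 0.00922), Cox5a (-1.05, 0.0467), Cox5b (-0.87, 0.0424) and Cox6a1 (-0.74, 0.0271) also fell. Those that did not pass included Cox4i1 (-0.48, adjusted p = 0.134), Cox8a (-0.63, 0.0671), Cox7a2l (0.19, 0.444), Cox6b2 (0.20, 0.668) and the muscle form Cox6a2 (-1.20 ± 1.16 SE, 0.491).

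In complex V, Atp5mpl, a small membrane subunit gene, stood at 191, 229, 278, 375 and 1503 CPM in aJ1aJ2 and at 188, 88.2, 97.0, 81.6 and 72.3 CPM in aN1aN2aN3, without overlap (log2 fold change -2.31 ± 0.59 SE, adjusted p = 0.0223). Its high value in aJ1aJ2 was again replicate 5. Atp5k (-2.25, adjusted p = 0.0188), Atp5j2 (-1.72, 0.00868), the epsilon subunit gene Atp5e (-1.33, 0.0132), and the stalk genes Atp5j (-1.15, 0.0121) and Atp5h (-0.91, 0.00954) fell too. The catalytic head genes did not pass: Atp5a1 stood at 815, 917, 826, 2013 and 1244 CPM in aJ1aJ2 and at 1252, 1001, 849, 879 and 695 CPM in aN1aN2aN3, which overlapped (-0.35, adjusted p = 0.415), and Atp5b had -0.55 (adjusted p = 0.243).

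The members are mostly short transcripts, and short transcripts as a whole were lower in aN1aN2aN3. Among other genes with a principal transcript under 1000 bases 27.6% were lower and 3.04% higher. Under 600 bases the median log2 fold change was -1.07 for 12 members and -0.81 for other genes, and 8 members and 36.6% of other genes were lower. From 600 to under 1000 bases it was -1.10 for 14 members and -0.47 for other genes, with 11 members and 25.4% of other genes lower. From 1000 to under 2000 bases it was -0.82 for 10 members and -0.16 for other genes, with 5 members and 13.9% of other genes lower. The members thus lay below other genes of like length in each of these 3 bins, as a description without a test. With the trend over transcript length taken out of each library, an alternative chosen after seeing the data, 19 members remained lower, all of them among the 25. The share of all genes lower in that fit is not given here.

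**Figure D5:**
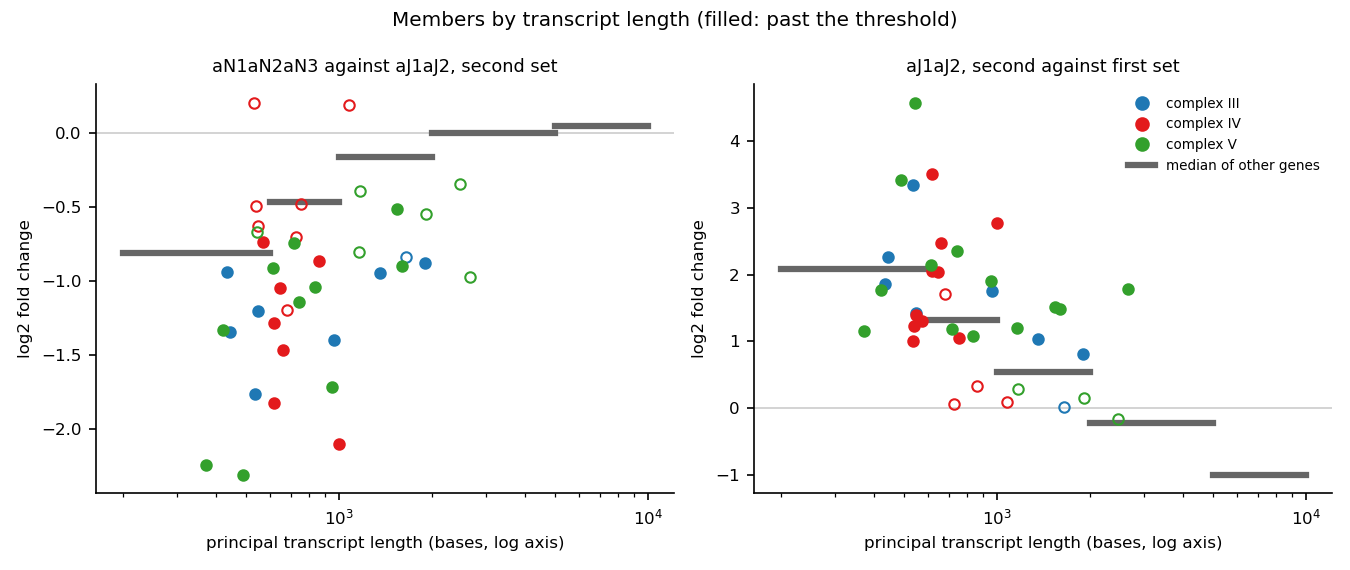
Log2 fold change of 38 members with an annotated principal transcript against its length (bases, log axis), filled where the adjusted p was under 0.05, with grey bars at the median of other genes in each length bin. In the second set (left) 12 members under 600 bases have a median of -1.07 where other genes have -0.81, and between the sets (right) the medians are 1.60 and 2.09. The 12 include Atp5l, which passed the filter only through the second set.

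The number of lower members also moved with the filter and with single libraries. It was 16 with no filter on low counts, 10 without aN1aN2aN3 replicate 2 or replicate 5, 12 without aN1aN2aN3 replicate 3 or replicate 4, and up to 27 in the other fits that left out 1 library, while the member median stayed between -1.14 and -0.74. In all 19 fits, those with other settings included, Atp5e, Atp5h, Atp5j2, Cox6b1, Cox7a2, Uqcr11, Uqcrh and Uqcrq, 8 members, were called lower. How many of all genes were lower in these alternative fits is not given here. Other cell types differed between these groups as well: 12 thyrocyte genes, of which Tg is the most abundant, summed to 13578 to 25563 CPM in aJ1aJ2 and to 27950 to 49224 CPM in aN1aN2aN3, 6 adipocyte genes to 1708 to 2967 against 297 to 1173 CPM, and 5 brown fat genes to 350.2 to 1313 against 23.5 to 226 CPM, with none of these genes at 0 in either group. Of the 11 thyrocyte genes tested, Tg and Pax8 were higher, the iodide transporter gene Slc5a5 was lower, and the median log2 fold change was -0.18 with 6 genes below 0. The brown fat genes Cidea, Dio2 and Elovl3 and the adipocyte genes Adipoq, Cfd, Lep and Lpl fell, and Cox7a1 and Cox8b, the muscle and brown fat isoforms left out of the members, fell with them (median log2 fold change -2.89). The 12 skeletal muscle genes summed to 325 to 127198 CPM in aJ1aJ2 and to 4244 to 27615 CPM in aN1aN2aN3. All 11 muscle genes tested lay below 0 (median log2 fold change -1.64), and 0 passed. Of the other lists, 6 of 6 fibroblast, 8 of 9 mural, 3 of 6 endothelial, 3 of 4 tested leukocyte and 1 of 6 parathyroid and C cell genes lay below 0. The part of tissue composition in the members' values was not tested.

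The aJ1aJ2 groups of both sets at 7 d had the same antibodies, dose and time, and most members were higher in the second. Of 39 members 31 were higher in the second set and 0 lower, where 34.1% of all genes were higher, and 23 had all second-set libraries above all first-set libraries, where 21.6% of all genes did. The member median was 1.48 against 0.09 for all genes. Cox6c rose from a mean of 116 to 1264 CPM (log2 fold change 3.51), Atp5mpl from 49.9 to 515 CPM (3.42) and Uqcrb from 7.39 to 71.7 CPM (3.34). Replicate 5 of the second set raised these means, with 3241, 1503 and 174 CPM against at most 1037, 375 and 59.2 CPM in the other 4 libraries, and without it the log2 fold changes were 2.79, 2.48 and 2.70. Atp5l had 0, 0.0683, 0, 0.0357 and 0.0567 CPM in the first set, on at most 1 count per library, and 0.749, 0.417, 0.708, 0.738 and 1.60 CPM in the second. It passed the filter on low counts only through the second set, where it is high. Its place among the 31 and the 23 was thus favoured by the filter and is no result. The long head genes did not pass, with -0.16 for Atp5a1 (adjusted p = 0.612) and 0.15 for Atp5b (adjusted p = 0.691), nor did Uqcrc1 (0.01, adjusted p = 0.978) and Cox7a2l (0.09, adjusted p = 0.661).

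Transcript length moved with this difference: 72.2% of other genes with principal transcripts under 1000 bases were higher in the second set. Under 600 bases the median was 1.60 for 12 members and 2.09 for other genes, from 600 to under 1000 bases 1.83 for 14 members and 1.33 for other genes, and from 1000 to under 2000 bases 0.92 for 10 members and 0.55 for other genes. The 12 include Atp5l, which passed the filter only through the second set. The log2 level of 114 genes under 600 bases relative to that of 2503 genes of 5000 bases or more was -2.92 to -1.26 in the libraries outside the second set, -0.23 to 0.94 in aJ1aJ2 and -0.61 to 0.09 in aN1aN2aN3 of the second set. With the length trend taken out, 18 members, Atp5l among them, were higher and 4 lower (Atp5d, Cox4i2, Cox5b and Cox7a2l), and the member median was 0.60. The shares of all genes higher and lower in that fit are not given here. Set and library properties cannot be told apart here.

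Related genes were read beside the members in 7 lists, chosen with earlier results of these data known. In aN1aN2aN3 against aJ1aJ2 of the second set, where 10.4% of all genes and 27.6% of other genes with short transcripts were lower, 5 of 6 genes for complex II, cytochrome c1 and cytochrome c were lower (Cyc1, Cycs, Sdhb, Sdhc and Sdhd; median -0.90). Of the assembly factors, 4 of 6 for complex III (Bcs1l, Lyrm7, Ttc19 and Uqcc2; median -1.17), 11 of 22 tested for complex IV (median -0.70) and 2 of 3 for complex V (Atpaf2 and Tmem70; median -0.64) were lower. Of 9 regulators of mitochondrial genes, among them Nrf1, Gabpa and Tfam, 1 was lower, the nuclear receptor gene Esrra (median -0.15). Genes of mitochondrial DNA, which encode core subunits of complexes III, IV and V, were lower in 5 of 5 tested (median -1.67), with -1.48 for the cytochrome b gene mt-Cytb (adjusted p = 0.00935) and -1.41 for the cytochrome oxidase gene mt-Co1 (adjusted p = 0.0254). The others tested, mt-Co2, mt-Co3 and mt-Atp6, averaged only 4.45, 11.8 and 9.91 CPM in aJ1aJ2 of the second set. There mt-Cytb averaged 8636 and mt-Co1 1768 CPM.

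Against RW, edgeR and DESeq2 called 0 of the 53 tested genes of the 7 lists in aJ1aJ2 at 15 h, 5 d and 7 d and in aN1aN2 at 5 d, with 3, 4, 2 and 5 at an unadjusted p under 0.05, and limma voom called 1, 12, 0 and 3. The share of all genes that limma voom called is not given here, so these counts cannot be set against one. In aN1aN2 at 15 h, where 1.68% of all genes passed, edgeR called 3 genes, all of them of mitochondrial DNA: 3 of 6 were higher (mt-Atp6, mt-Co2 and mt-Co3; median 2.30), while mt-Cytb (0.33) and mt-Co1 (0.40) did not pass. The cytochrome oxidase gene mt-Co2 stood at 2.88 to 9.77 CPM in RW and at 20.1 to 66.0 CPM in aN1aN2 (log2 fold change 2.85, adjusted p = 0.00362). In RW at 15 h mt-Co2, mt-Co3 and mt-Atp6 averaged 5.63, 6.44 and 5.01 CPM, where mt-Cytb averaged 8619 and mt-Co1 3201 CPM. Whether such low levels reflect how reads were counted was not tested. The nuclear members had a median of -0.01 in the same comparison. As the aN1aN2 libraries at 15 h belong to the other block of gene lengths, antibody and block cannot be told apart here either.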

How the data were processed

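RNA from thyroid tissue was sequenced as single-end reads of 50 bases (HiSeq 4000), per the labels' protocols. Read counts per Ensembl gene and FPKM values were deposited by the authors. The submitters' processing notes name GSNAP and limma without versions, while genome build, annotation and counting settings are not given in sources used here. FPKM was used only for the order of genes and the check of gene lengths.

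Counts were scaled with TMM. Genes passed filterByExpr (minimum count 10, total 15) and were tested over the whole table with edgeR's quasi-likelihood test (edgeR 4.0.16, R 4.3.3), fitted on all groups of a time or on both sets at 7 d (16954 to 19570 genes per fit), with Benjamini-Hochberg adjustment and a threshold of 0.05. The second set had a fit of its own for aN1aN2aN3 against aJ1aJ2. Correlations used log2(CPM + 0.5) and permutation tests (scipy 1.17.1). Scripts were tested on simulated counts. All 52636 genes entered the library totals, and 0 deposited columns were left without a sample.

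Members and lists were chosen with earlier results of these data known. Named members were the tissue isoforms and their partners, core subunits, up to 10 past the threshold per comparison by size of change or the 3 with the smallest adjusted p, and the highest and lowest per complex. No ATP synthase inhibitor gene matched the name rule. Promoters and transcript lengths came from reference annotation, not from the authors' files. Replicate numbers did not pair samples (same-numbered deviations correlated with mixed signs), and no pair of libraries agreed within sampling noise. Alternatives were RLE size factors, no filter, DESeq2 1.42.0, voom with limma 3.58.1, the contrast's groups alone, a muscle covariate, the replicate block and leaving out each library, and, chosen after seeing the data, leaving out muscle-rich libraries and removing the transcript length trend.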

Additional observations from a re-analysis of the deposited data

Results flagged for a closer look

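The 3 complex sums (without Cox6a2 in complex IV) and 6 members were checked in each of the 10 groups, and in 23 of 90 cases the highest or lowest of 5 libraries lay apart from the rest by more than 0.71 of the group's range. For a single case with normally distributed values chance gives about 1 in 20. The check used CPM without logs, the 90 cases share libraries, and some of the members are part of the sums. The cases are therefore not independent, and 1 in 20 is not their expected share. RW replicate 3 at 5 d gave 8 of them, with 4066 CPM of complex III, 3084 of complex IV, 14390 of complex V, 707 of Cox6a2, 94.9 of Cox7a2l, 4779 of Atp5a1 and 224 of Atp5mpl as the highest values and 29.3 CPM of Cox6a1 as the lowest. In the first set at 7 d aJ1aJ2 replicate 2 gave 6, with 2575 CPM of complex III, 2248 of complex IV, 7681 of complex V, 497 of Cox6a2, 199.7 of Cox6a1 and 2424 of Atp5a1. RW replicate 5 of that set stood high with 1633 CPM of complex IV and 187 of Cox6a1. In the second set aN1aN2aN3 replicate 1 stood high with 2037 CPM of complex III, 259 of Cox6a1 and 188 of Atp5mpl, aJ1aJ2 replicate 4 with 1808 CPM of Cox6a2, and aJ1aJ2 replicate 5 with 1503 CPM of Atp5mpl. The remaining cases were aJ1aJ2 replicate 3 at 5 d with 276 CPM of Cox6a2 and aN1aN2 replicate 5 at 15 h with 77.8 CPM of Cox7a2l. The muscle sum was above 20000 CPM before scaling in RW replicate 3 and aJ1aJ2 replicate 3 at 5 d, in aJ1aJ2 replicate 2 of the first set, in aN1aN2 replicate 5 at 15 h, and in the 3 libraries of the second set named here, while it was 1452 CPM (scaled) in RW replicate 5 of the first set. Its part in these values was not tested.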

How the results depend on the processing

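Counts of lower or higher members moved under few alternatives, and the cause was not tested in any of them. Shares of all genes called under the alternatives are not given here. The 1 call of aJ1aJ2 against RW at 15 h became 0 without the muscle-rich libraries, and ranged from 0 to 1 when single libraries were left out. Where no member was called, 1 was called in aN1aN2 against aJ1aJ2 at 15 h and in the aJ1aJ2 interaction (DESeq2, muscle covariate), in aJ1aJ2 against RW at 5 d (voom, muscle covariate, without muscle-rich libraries), in aN1aN2 against RW at 5 d and aJ1aJ2 against RW in the first set at 7 d (DESeq2, voom), and in aN1aN2 against aJ1aJ2 at 5 d (voom); the muscle covariate gave 4 in aN1aN2 against RW at 5 d. In the second set 25 became 16 without a filter, and 10 to 27 when single libraries were left out. Leaving out single libraries gave 0 to 1 calls in aJ1aJ2 against RW at 5 d, with member medians from -1.05 to 0.32, and medians from -0.85 to 0.42 in aN1aN2. The member median was -0.023 in aJ1aJ2 at 5 d without muscle-rich libraries, 0.061 in aN1aN2 at 5 d with voom, and 0.60 between the sets with the length trend removed. Of the other values with all or most libraries, 158 counts, medians or correlations moved by less than 1.5 times, by less than the spread between replicates (0.557 on the log2 scale for medians) or stayed on their side of the threshold. Among these, member medians still turned sign: 0.073 in aJ1aJ2 against RW and -0.21 in aN1aN2 against aJ1aJ2 at 15 h without muscle-rich libraries, 0.0062 to 0.045 in aN1aN2 against RW at 15 h with RLE, no filter, DESeq2 or voom, and -0.15 in aN1aN2 against aJ1aJ2 at 5 d with the covariate. Leaving out single libraries gave medians of -0.35 to -0.0014, -0.23 to 0.22 and -0.0070 to 0.41 in these 3 comparisons at 15 h, -0.17 to 0.49 in aN1aN2 against aJ1aJ2 at 5 d, and 0.030 to 0.49 in the first set at 7 d. Of single genes, 383 values kept direction and side of the threshold, 13 passed newly and 12 no longer passed.

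Signs turned in uncalled members. At 5 d in aN1aN2 against aJ1aJ2 the muscle covariate gave -0.0017 for Cox5a and -0.19 for Atp5f1. In aJ1aJ2 against RW at 5 d Cox4i2 had -0.013 with RLE, -0.0029 with DESeq2 and -0.0090 with the covariate. Between the sets Cox4i2 had -1.06 with the length trend removed. When single libraries were left out, ranges crossed 0 in aJ1aJ2 against RW at 5 d for Atp5k (-1.77 to 0.030), Cox6c2 (-1.39 to 0.10), Cox7a2 (-0.66 to 0.0044) and Cox4i2 (-0.18 to 0.11). They did so in aN1aN2 against RW for Cox6c2 (-1.17 to 0.26) and Atp5k (-1.39 to 0.31), and against aJ1aJ2 for Cox5a (-0.17 to 0.87) and Atp5f1 (-0.19 to 0.61). The same held in the aJ1aJ2 interaction for Atp5k (-1.55 to 0.20) and Cox6c2 (-1.19 to 0.25), and between the sets for Cox4i2 (-0.12 to 0.28).

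The replicate numbers only name samples. With the replicate block, 8 members of the second set were lower in place of 25, 0 in place of 1 in aJ1aJ2 against RW at 15 h, 30 in place of 31 were higher between the sets, and Cox4i2 in aJ1aJ2 against RW at 5 d had -0.017. Same-numbered samples correlated best with each other in at most 2 of 5 pairs. Depth limits Cox4i2, with 4 counts in the poorest library.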
